A study of Mus musculus with 79 samples.

Results

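The genes of glycolysis around Pgam1 were followed in mouse T helper 17 cells made in culture. The set holds 33 genes taken by name for their place in the pathway, a choice made with earlier results of these data known. It covers the enzymes of each glycolytic step with their isoforms and the glucose transporters Slc2a1 and Slc2a3. It also covers the lactate transporters Slc16a1 and Slc16a3 and the genes that admit pyruvate to the mitochondrion or hold it back. All 33 were among the 20465 gene symbols of the deposited table. Of these, 30 reached at least 1 TPM in at least 4 of the 78 libraries used, as did 10672 genes in all, and were tested. TPM is a transcript abundance scaled for transcript length and for the size of the library, so levels of different genes can be set side by side. The other 3 were the isoforms Hk3, Aldoc and Pklr, whose highest values in any library were 0.323, 1.35 and 0.158 TPM. Of the 30, Pgam2, Pfkfb1 and Eno2 reached 1 TPM in 31, 62 and 65 libraries, and the other 27 in at least 74.

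The cells were of 2 kinds. Th17p cells, the pathogenic kind, were differentiated with IL1b, IL6 and IL23. Th17n cells, the non-pathogenic kind, were differentiated with TGFb and IL6. Each kind was cultured with EGCG at 20 uM or its solvent DMSO, or with DHEA at 50 uM or its solvent methanol. All T cells carried the division dye CFSE, which is diluted at each division. For each condition RNA was taken from unsorted cells (Total) and from cells sorted after exactly 1 division (Div.1). The 16 groups held 5 libraries each, from 5 mice per condition, except that Th17p and Th17n DMSO Div.1 held 4. Strain, sex and age were not given in the sources used here. All groups, the solvent controls included, are cells activated and differentiated outside the animal. The question the design poses for these genes is how each compound, relative to its own solvent, altered them in each kind of cell, and whether first-division cells differed from unsorted cells.

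Glycolysis splits glucose into pyruvate and yields ATP and NADH. Pyruvate is then either reduced to lactate by lactate dehydrogenase, which returns NAD+ to the pathway, or carried into the mitochondrion and oxidised. T cells raise glucose uptake and lactate output when they are activated, and Th17 cells are known for a high use of glycolysis under the transcription factors HIF-1 and Myc. PGAM1, phosphoglycerate mutase, converts 3-phosphoglycerate to 2-phosphoglycerate between phosphoglycerate kinase and enolase, and so sits beside the branch that leads to serine. EGCG, a catechin of green tea, has been used as an inhibitor of the PGAM1 enzyme. DHEA, a steroid, has been used as an inhibitor of glucose-6-phosphate dehydrogenase, the entry to the pentose phosphate pathway. Both act on proteins, and the data here are RNA levels.

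The 78 libraries summed to between 880077 and 895017 TPM and held between 9338 and 9845 genes at 1 TPM or more. The 33 genes made up 1.47% to 3.07% of the summed TPM, with a median of 2.08%. The read depth behind a TPM is unknown, so no counting interval can be given, and the error stated throughout is the spread between libraries. In 7 of the 8 methanol and DHEA groups the library of well column 10 had the highest share of these genes, and results were recomputed without the wells of columns 1 and 10. One further library, labelled Th17n DMSO Div.1 but placed in well A4 among Th17p wells, was left out. As for the identity of the cells, Cd3e, Cd3d, Cd4, Il17a and Il17f were above 0 in every library. Il17f ran from 96.7 to 8147 TPM (median 1834) and Il17a from 1.44 to 549. Cd3e ran from 89.3 to 174 TPM, Cd3d from 233 to 592 and Cd4 from 67.9 to 186. The sum of these 5, given below, thus depends most on Il17f and is no count of T helper 17 cells. Markers of myeloid cells (6 of the 7 listed were in the table) summed to at most 1.69 TPM and those of B cells (5 genes) to at most 5.11 TPM. Markers of CD8 T and NK cells (8 genes) summed to 10.1 to 47.1 TPM. Of these 8, Cd8b1 (3.41 to 26.9 TPM) and Prf1 (0.151 to 3.64) were above 0 in every library, Klrd1 reached 24.2 and Nkg7 22.9 TPM, Cd8a was at most 0.557 TPM, and Ncr1, Klrb1c and Gzma were at 0 in 74, 71 and 75 of the 78 libraries. In bulk RNA, fewer cells of a type and less RNA per cell cannot be told apart.

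In unsorted cells in DMSO, transcript levels ran over a wide range along the pathway. Ldha, which reduces pyruvate to lactate, was the most abundant of the 30 genes, at 5611 ± 137 TPM in Th17p and 5225 ± 322 in Th17n (mean ± SD, n = 5 each). The steps from aldolase to pyruvate kinase were each served by 1 abundant transcript. Eno1 (enolase) stood at 3102 ± 85.1 TPM in Th17p, Pkm (pyruvate kinase) at 3053 ± 49.1, Gapdh at 2635 ± 81.7 and Aldoa (aldolase) at 2188 ± 75.5. Pgam1 came next at 1582 ± 39.3 TPM, close to Tpi1 (triosephosphate isomerase) at 1536 ± 68.5. Pgk1 (phosphoglycerate kinase), the step before Pgam1, stood at 1369 ± 31.8 TPM. The upper steps were far lower: Hk2 stood at 56.04 ± 3.11 TPM, Slc2a1 at 70.05 ± 4.22 and Pfkp at 158 ± 19.02.

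Most steps were nearly monopolised by 1 isoform in all 16 groups. Over the 78 libraries Pgam1 made up 97.1% to 98.7% of the TPM of its step, Bpgm, whose enzyme makes the 2,3-bisphosphoglycerate of red cells, 1.25% to 2.85%, and the muscle isoform Pgam2 at most 0.208%. Ldha held 97.5% to 99.4% against Ldhb, and Eno1 99.0% to 99.8% against Eno2 and Eno3. Other steps were shared. Hk1 held 32.1% to 63.6% and Hk2 36.4% to 67.8% of hexokinase. Pfkp held 44.3% to 63.8%, Pfkl 33.1% to 52.4% and Pfkm 1.92% to 4.94% of phosphofructokinase. Of the lactate transporters, Slc16a1 held 59.4% to 95.6% and Slc16a3 4.36% to 40.6%. Gapdh, Pgk1, Pgam1, Aldoa and Ldha each have 2 pseudogenes in the annotation named after them with the suffix ps, and Mpc1 has 1. Pseudogenes under other names were not counted. Reads of these and of other genes may have been split between near copies. The M1 and M2 forms of Pkm cannot be told apart in a table of gene symbols.

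**Figure D1:**
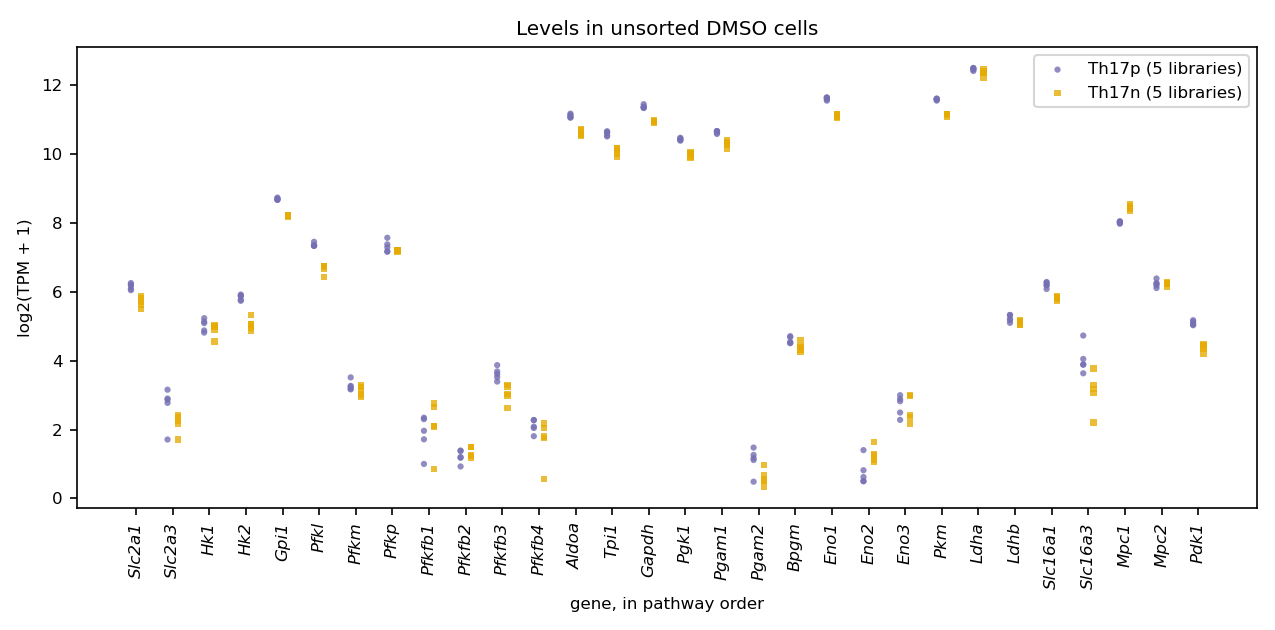
Levels of the 30 tested genes in pathway order, as log2(TPM + 1), in Th17p and Th17n cells, DMSO Total, with 1 point for each of 5 libraries per group. The main transcript of each step from Aldoa to Ldha sits at the top, from 1369 to 5611 TPM on average in Th17p. The minor isoforms of these steps, the transporters, Hk1, Hk2 and the PFKFB enzymes sit below.

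Pgam1 (ENSMUSG00000011752.7, mm10 chr19:41911923-41918660, plus strand; PGAM1 in the deposited table, as LDHB and SLC16A3 for Ldhb and Slc16a3) was described in every group. In unsorted Th17p cells its 5 libraries in DMSO read 1600.0, 1613, 1523, 1613 and 1561 TPM and its 5 in EGCG 1171, 1179.6, 1121, 1242 and 1193. All EGCG libraries lay below all DMSO libraries. In methanol they read 1530.1, 1553, 1569, 1691 and 1751 TPM and in DHEA 1441, 1462, 1358, 1409 and 1597, and here the groups overlapped. In first-division Th17p cells the 4 DMSO libraries read 1503, 1554, 1499 and 1479 TPM and the 5 EGCG libraries 1242, 1192, 1173, 1261 and 1278, again apart. The methanol libraries read 1503, 1522, 1572, 1538 and 1645 and the DHEA libraries 1672, 1561, 1588, 1689 and 1720.2 TPM, which overlapped.

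In unsorted Th17n cells Pgam1 read 1288, 1334, 1257, 1211 and 1129 TPM in DMSO and 1209, 1175, 1124, 1208 and 1168 in EGCG, and the groups overlapped. In methanol it read 1165, 1205, 1163, 1151 and 1283 TPM and in DHEA 944, 987, 970.4, 830.0 and 951, where all DHEA libraries were the lower. In first-division Th17n cells it read 1015, 1036, 1098 and 1018 TPM in the 4 DMSO libraries and 1189, 1125, 1124, 1189.8 and 1165 in the 5 EGCG libraries. There, all EGCG libraries were the higher. The first-division methanol libraries read 1031, 1037, 1052, 1098 and 1217 and the DHEA libraries 989, 1093, 986, 986 and 1137 TPM, which overlapped.

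Ordered by mean, the highest Pgam1 level was that of Th17p DHEA Div.1 (1646 ± 68.5 TPM) and the lowest that of Th17n DHEA Total (936 ± 61.9). The 6 Th17p groups without EGCG occupied the top of the order and the Th17n groups and the EGCG-treated Th17p groups the rest. Of the 15 pairs of neighbours in the order, 14 had overlapping library ranges. The exception was the step from Th17p DHEA Total (1454 ± 89.4 TPM) to Th17n DMSO Total (1244 ± 78.5).

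**Figure D2:**
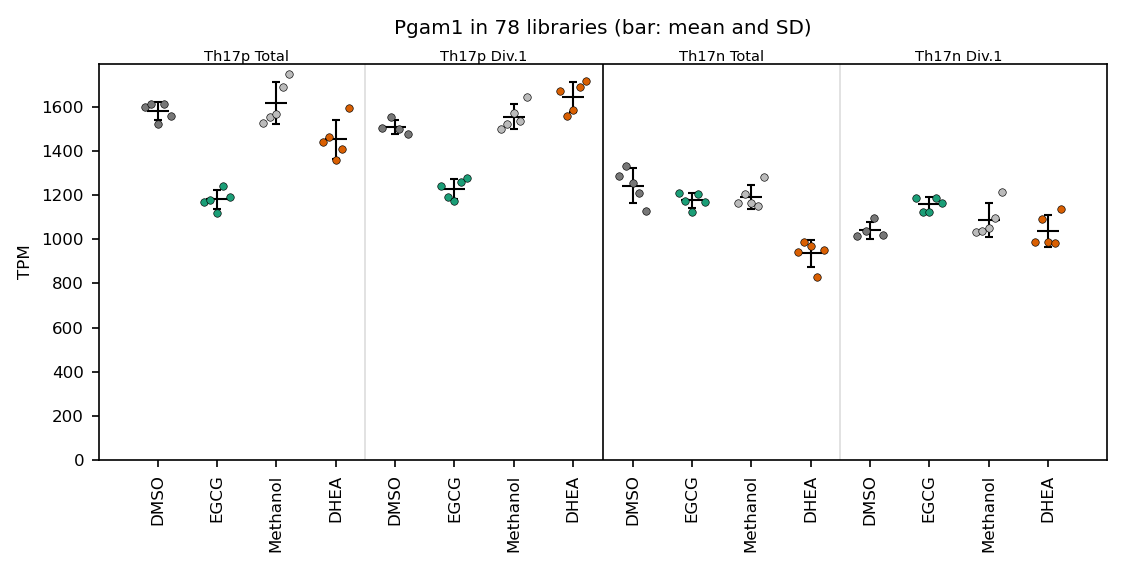
Pgam1 in TPM on the vertical axis in each of the 78 libraries, by group on the horizontal axis, with 1 point per library and bars for the group mean and SD. The Th17p groups in EGCG, at 1181 and 1229 TPM on average, sit at the level of Th17n cells.

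The letters before the start of Pgam1 and of 3 other genes that the results turn on are shown because several glycolytic genes are textbook targets of HIF-1 and Myc, whose core motifs are short enough to be read by eye. Each sequence is the 250 bases before a RefSeq start of the gene (GRCm38.p6, the patch release of mm10), 5′ to 3′ on the gene's own strand, and capitals mark matches, on either strand, to 2 forms of the core of the HIF-1 element. The first form is ACGTG. The second form, with another first letter, is GCGTG. The E-box bound by Myc, CACGTG, holds the first form on both strands. Pgam1, chr19:41911621-41911870, holds 3 matches. Pgk1, chrX:106186850-106187099, holds 2. Ldhb, chr6:142507958-142508207 on the minus strand, holds 1. Slc16a1, chr3:104638414-104638663, holds 4, of which an overlapping pair forms an E-box. None of the 4 windows overlaps an annotated exon or gene in GENCODE M21.
Pgam1: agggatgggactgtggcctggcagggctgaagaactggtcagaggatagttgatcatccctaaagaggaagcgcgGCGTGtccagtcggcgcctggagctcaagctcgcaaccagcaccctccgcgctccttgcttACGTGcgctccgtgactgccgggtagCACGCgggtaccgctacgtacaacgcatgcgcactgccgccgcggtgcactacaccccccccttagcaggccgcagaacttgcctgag
Pgk1: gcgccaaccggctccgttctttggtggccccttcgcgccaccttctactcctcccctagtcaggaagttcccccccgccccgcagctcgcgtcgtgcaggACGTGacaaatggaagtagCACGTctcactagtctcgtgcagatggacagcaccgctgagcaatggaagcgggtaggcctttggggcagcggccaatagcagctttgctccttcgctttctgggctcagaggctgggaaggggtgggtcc
Ldhb: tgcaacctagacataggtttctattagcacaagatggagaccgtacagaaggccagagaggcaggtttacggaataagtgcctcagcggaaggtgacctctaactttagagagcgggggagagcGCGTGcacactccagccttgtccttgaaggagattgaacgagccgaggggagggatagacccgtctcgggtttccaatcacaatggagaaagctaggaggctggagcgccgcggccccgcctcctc
Slc16a1: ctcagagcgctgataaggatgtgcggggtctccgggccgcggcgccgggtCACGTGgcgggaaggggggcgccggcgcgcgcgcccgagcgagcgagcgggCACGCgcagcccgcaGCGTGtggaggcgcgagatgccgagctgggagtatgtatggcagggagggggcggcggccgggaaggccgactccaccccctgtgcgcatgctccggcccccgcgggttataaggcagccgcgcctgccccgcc

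Windows of this length were found for 32 of the 33 genes, and a gene with several starts counted once if any window matched. The first form stood in 13 of the 32 (40.6%) and in 18.5% of the 27025 genes with a window. The second form stood in 20 (62.5%) and in 30.9% of all genes, and the E-box in 5 (15.6%) and in 6.86% of all. Either form stood in 26 (81.2%) and in 41.5% of all. Some counted windows lie within annotated exons. The only window of Mpc2 and the matching window of Pfkfb1 did so over all 250 bases. The shares of all genes include genes not expressed in these cells, so the 2 shares compare unlike sets. A match describes letters only and is no evidence of binding.

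Genes were ranked by the Pearson correlation of their group means of log2(TPM + 1) with those of Pgam1 over the 16 groups. The ranking held 7358 tested genes with a mean of at least 5 TPM, with predicted genes passed over. The first were Lrpprc (0.965), Eno1 (0.965), Ldha (0.956), Ppat (0.951) and Gapdh (0.948). Of the set, Hk2 ranked 9 at 0.936, Aldoa 12 at 0.931 and Pgk1 54 at 0.894. Mpc1, a subunit of the mitochondrial pyruvate carrier, went the other way at -0.60. The 16 points share plate and library preparation and fall into the 2 kinds of cell, so the values describe these groups and no more. Each gene was also correlated with the mean of all other tested genes of the set, transporters and minor isoforms included. For Pgam1 this was 0.80 over all 16 groups, 0.39 over the 8 Th17p groups and 0.19 over the 8 Th17n groups. Lower values within a kind of cell were not particular to Pgam1. They were 0.88, 0.48 and 0.25 for Eno1, 0.88, 0.55 and 0.32 for Gapdh, and 0.75, 0.70 and -0.13 for Ldha. For Pgk1 these values were 0.965, 0.935 and 0.70, and for Tpi1 0.96, 0.93 and 0.85.

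Without either compound, glycolysis transcripts were higher in Th17p than in Th17n cells. Over both solvents, 21 of the 30 genes were higher in Th17p and 1 was lower in unsorted cells at an adjusted p under 0.05, where 30.9% of the 10672 genes were higher and 26.5% lower. In first-division cells 23 were higher and 1 lower, against 34.9% and 25.7% of all genes. The median log2 difference of the 30 was 0.39 and 0.45, against 0.02 and 0.04 over all genes. All log2 changes here are differences of log2(TPM + 1), which understate the change of genes at low TPM. The 5 mice per condition are the replicates, and p-values measure the spread between these samples.

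Among the largest differences were genes at the entry of the pathway. Hk2, the inducible hexokinase that traps glucose in the cell, read 52.2, 57.3, 58.1, 53.3 and 59.3 TPM in Th17p and 30.1, 32.2, 38.7, 28.3 and 32.03 in Th17n, DMSO Total. The ranges were apart, and over both solvents the log2 difference was 0.86 ± 0.06 (SE; adjusted p = 1.99e-20) unsorted and 1.14 ± 0.06 (SE; adjusted p = 2.97e-25) in first-division cells. Hk1, the constitutive isoform, was nearer between the kinds (31.8 and 28.98 TPM in DMSO Total). The ratio of Hk2 to Hk1 was higher in Th17p by 0.65 (exact p = 0.00794, adjusted p = 0.0244) on the log2 scale in DMSO Total and by 0.90 (exact p = 0.00794, adjusted p = 0.0244) in methanol Total. Ratios were tested within pairs of groups with an exact two-sided permutation test, adjusted over 120 tests, of which 44 passed.

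Pfkl, the liver type of phosphofructokinase, the enzyme that commits sugar to glycolysis, read 163 ± 5.78 TPM in Th17p and 101 ± 8.997 in Th17n, DMSO Total, with log2 differences of 0.81 (adjusted p = 5.42e-23) and, in first-division cells, 1.02 (adjusted p = 9.22e-27). It was higher relative to the platelet type Pfkp, by 0.57 in DMSO Total, 0.79 in methanol Total and 0.72 in methanol Div.1 (log2, each exact p = 0.00794 and adjusted p = 0.0244), and by 0.44 (exact p = 0.0286, adjusted p = 0.0647) in DMSO Div.1, where 4 against 4 libraries cannot pass. Slc2a3, which encodes the high-affinity glucose transporter GLUT3, was low in both kinds, at 5.75 ± 2.09 and 3.59 ± 0.814 TPM in DMSO Total, with overlapping libraries. Over both solvents its log2 difference was 0.95 (limma adjusted p = 6.37e-06), and 0.72 to 1.07 with single libraries left out. In first-division cells the difference was 0.998 to 1.10 with single libraries left out. Its call held in all 25 alternatives (limma adjusted p from 2.19e-08 to 0.00134). Over all groups Slc2a3 reached 1 TPM in 76 of the 78 libraries, and its lowest value was 3.28e-05 TPM. Pdk1, whose kinase shuts pyruvate dehydrogenase, stood at 33.1 ± 1.42 and 19.8 ± 1.55 TPM (0.86 (adjusted p = 8.64e-15)). Tpi1 differed by 0.87 (adjusted p = 1.33e-25) in first-division cells. The log2 differences of single genes in this paragraph are over both solvents, while the TPM are those of DMSO Total.

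Pgam1 was higher in Th17p by 0.39 ± 0.03 (SE; adjusted p = 4.27e-18) in unsorted and 0.53 ± 0.03 (SE; adjusted p = 7.28e-23) in first-division cells on the log2 scale, with no overlap of the libraries. Relative to Eno1, the next enzyme, Pgam1 was lower in Th17p by -0.15 (exact p = 0.0159, adjusted p = 0.0433) in DMSO Total and by -0.14 (exact p = 0.00794, adjusted p = 0.0244) in methanol Div.1. The differences of this ratio in methanol Total, -0.10 (exact p = 0.0238, adjusted p = 0.0608), and in DMSO Div.1, -0.0091 (exact p = 0.714, adjusted p = 0.765), did not pass. The DMSO Total call ended in 9 of 13 alternatives (adjusted p from 0.0232 to 0.0729), among them each single library left out except Th17n replicate 5 and Th17p replicate 1. Mpc1 was the 1 gene higher in Th17n in both sorts, with log2 differences of -0.27 (adjusted p = 3.64e-09) and -0.22 (adjusted p = 2.21e-06). In DMSO Total it stood at 257 ± 5.22 TPM in Th17p and 346 ± 15.6 in Th17n. Its partner Mpc2 stood at 74.1 and 74.1 TPM, and the ratio of Mpc1 to Mpc2 was lower in Th17p by -0.43 (exact p = 0.00794, adjusted p = 0.0244). In methanol Total that difference was -0.12 (exact p = 0.135, adjusted p = 0.208), which did not pass, and in methanol Div.1 -0.34 (exact p = 0.00794, adjusted p = 0.0244).

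EGCG lowered many genes of the pathway in Th17p cells and raised Ldhb and the pyruvate carrier. In unsorted Th17p cells 15 of the 30 genes fell and 6 rose, against 14.9% and 30.1% of all genes tested. In first-division cells 13 fell and 4 rose, against 11.9% and 33.7%. The median log2 change of the 30 was -0.20 unsorted and -0.11 in first-division cells, and that of all genes 0.09 and 0.12. After the libraries were rescaled by median ratios, the first-division median of all genes was 0.02 in place of 0.12, and 16 fell and 5 rose unsorted, against 21.1% and 23.5% of all genes so rescaled, and 14 fell and 3 rose after 1 division, against 21% and 22.8%.

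Among the upper steps, Hk2 changed most. Its unsorted Th17p libraries read 52.2, 57.3, 58.1, 53.3 and 59.3 TPM in DMSO and 35.7, 34.1, 39.6, 34.6 and 38.2 in EGCG. The groups lay apart, and Hk2 fell to 0.650 times its DMSO mean (log2 change -0.61 ± 0.09 (SE), limma adjusted p = 1.61e-08). In first-division cells it went from 57.1 ± 4.05 to 40.8 ± 1.89 TPM (log2 change -0.47 ± 0.09 (SE), limma adjusted p = 1.46e-05). Relative to Hk1, Hk2 was lower by -0.65 (exact p = 0.00794, adjusted p = 0.0244) unsorted and by -0.45 (exact p = 0.00794, adjusted p = 0.0244) after 1 division on the log2 scale. The first-division ratio calls for EGCG, here and below, rest on 4 DMSO libraries and ended when any 1 of the 5 EGCG libraries was left out (adjusted p of 0.0635 in Th17p and 0.0647 in Th17n), since 4 against 4 libraries cannot pass.

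Gpi1, the isomerase after hexokinase, fell in first-division cells from 408 ± 15.9 to 324 ± 4.97 TPM (log2 change -0.33 ± 0.04 (SE), limma adjusted p = 3.55e-10), and Pfkp from 163 ± 6.14 to 126 ± 6.41 (log2 change -0.37 ± 0.07 (SE), limma adjusted p = 7.91e-06). Below them stands Aldoa, which splits fructose bisphosphate into triose phosphates. It read 2129, 2171, 2110.3, 2291 and 2237 TPM in unsorted DMSO libraries and 1445, 1566, 1448, 1637 and 1585 in EGCG libraries, with no overlap. It fell to 0.702 times its DMSO mean (log2 change -0.51 ± 0.05 (SE), limma adjusted p = 1.95e-12), and after 1 division from 2251 ± 106 to 1542 ± 46.1 TPM (log2 change -0.55 ± 0.06 (SE), limma adjusted p = 1.81e-12).

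Pgam1 fell to 0.747 times its DMSO mean in unsorted Th17p cells (log2 change -0.42 ± 0.04 (SE), limma adjusted p = 1.43e-12) and to 0.815 times after 1 division (log2 change -0.30 ± 0.05 (SE), limma adjusted p = 2.8e-07), from the library values given above. It fell further than the step before it: the ratio of Pgam1 to Pgk1 was lower by -0.21 (exact p = 0.00794, adjusted p = 0.0244) unsorted and -0.13 (exact p = 0.00794, adjusted p = 0.0244) after 1 division on the log2 scale. Against Eno1, the step after it, the ratio was lower by -0.17 (exact p = 0.0159, adjusted p = 0.0433) after 1 division and differed by -0.10 (exact p = 0.0397, adjusted p = 0.0768) unsorted, which did not pass.

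At the end of the pathway the isoforms of lactate dehydrogenase moved apart. Ldhb (ENSMUSG00000030246.11, mm10 chr6:142490249-142507957, minus strand) encodes the subunit that favours the oxidation of lactate to pyruvate. In unsorted Th17p cells it read 34.99, 39.1, 38.9, 33.2 and 36.1 TPM in DMSO and 106, 121, 116, 96.96 and 127 in EGCG. Every EGCG library was higher than any DMSO library, and Ldhb rose to 3.12 times its DMSO mean (log2 change 1.61 ± 0.09 (SE), limma adjusted p = 1.58e-24). After 1 division it went from 53.2 ± 5.71 to 112 ± 11.9 TPM (log2 change 1.06 ± 0.09 (SE), limma adjusted p = 4.48e-15). Ldha, at 5611 ± 137 TPM in DMSO and 4899.6 ± 111 in EGCG, remained the main isoform. The log2 ratio of Ldhb to Ldha was higher by 1.80 (exact p = 0.00794, adjusted p = 0.0244) unsorted and 1.26 (exact p = 0.00794, adjusted p = 0.0244) after 1 division.

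Slc16a1, which encodes the lactate and pyruvate transporter MCT1, read 66.4, 71.3, 72.1, 76.6 and 75.8 TPM in DMSO and 56.8, 53.8, 53.5, 52.1 and 53.5 in EGCG, unsorted, and fell (log2 change -0.42 ± 0.10 (SE), limma adjusted p = 0.000399). In first-division cells it stood at 55.9 ± 6.57 and 58.1 ± 3.04 TPM. Both subunits of the mitochondrial pyruvate carrier rose in both sorts. Mpc1 went from 257 ± 5.22 to 309.7 ± 14.3 TPM unsorted (0.27 (adjusted p = 2.12e-05) on the log2 scale) and changed by 0.40 (adjusted p = 1.39e-08) after 1 division. Mpc2 went from 74.1 ± 5.37 to 92.5 ± 4.83 (0.32 (adjusted p = 1.09e-05)) and changed by 0.35 (adjusted p = 5.56e-06). Eno3, the muscle enolase, rose unsorted from 5.58 ± 1.30 to 8.73 ± 0.440 TPM (0.59 (adjusted p = 4.95e-05)).

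Other markers moved in these comparisons. Within the T helper 17 sum, Il17f had by far the widest range over the 78 libraries. The summed T helper 17 markers (5 of 5 above 0) were 2453 to 3311 TPM in Th17p DMSO Total and 965 to 1178 in EGCG Total, and 2690.1 to 3059 and 1206 to 1311 after 1 division. The summed CD8 T and NK markers were 10.1 to 15.3 and 21.2 to 33.9 TPM unsorted, and 15.6 to 21.6 and 24.7 to 35.1 after 1 division. Their part in the changes of the glycolysis genes was not tested.

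In Th17n cells EGCG gave more increases than decreases among the same 30 genes, as it did among all genes. Unsorted, 10 rose and 2 fell, against 21.7% and 13.5% of all genes. After 1 division 11 rose and 0 fell, against 28.1% and 6.77%, so the count of increases was near the background. The median log2 change was 0.16 and 0.21, and that of all genes 0.05 and 0.11. The counts depended on scaling and on 1 library. Median-ratio rescaling brought the all-gene median after 1 division to about 0 in place of 0.11. It gave 9 increases and 4 decreases unsorted, against 17.9% and 17.9% of all genes. After 1 division it gave 6 and 1, against 15.4% and 15.7%. The return of well A4 to its labelled group gave 3 and 1 after 1 division, with no share of all genes to set beside them.

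Ldhb rose in Th17n cells too. It read 31.7, 33.3, 34.6, 32.1 and 34.8 TPM in unsorted DMSO libraries and 78.4, 71.9, 81.6, 71.5 and 77.8 in EGCG libraries, which lay apart (log2 change 1.17 ± 0.09 (SE), limma adjusted p = 2.33e-17). After 1 division it went from 45.9 ± 5.12 to 79.2 ± 5.69 TPM (log2 change 0.78 ± 0.09 (SE), limma adjusted p = 5.76e-10). Ldha fell unsorted (-0.15 (adjusted p = 0.00585), overlapping libraries), and the log2 ratio of Ldhb to Ldha was higher by 1.32 (exact p = 0.00794, adjusted p = 0.0244) unsorted and by 0.72 (exact p = 0.00794, adjusted p = 0.0244) after 1 division. Ldhb and Mpc2 were the 2 of the 30 that rose with EGCG in all 4 combinations of cell and sort, against 9.51% of all genes, and 0 fell in all 4, against 1.37%, so neither count stands out from the background.

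The lactate transporters moved in opposite directions in unsorted Th17n cells. Slc16a1 (ENSMUSG00000032902.1, mm10 chr3:104638668-104658462, plus strand) read 52.03, 54.7, 55.9, 57.8 and 55.1 TPM in DMSO and 23.8, 29.6, 30.3, 41.01 and 34.6 in EGCG, with no overlap, and fell to 0.578 times its DMSO mean (log2 change -0.79 ± 0.10 (SE), limma adjusted p = 2.12e-09). Slc16a3 (ENSMUSG00000025161.16, mm10 chr11:120948480-120960868, plus strand) encodes MCT4, the exporter of lactate in highly glycolytic cells. It read 8.73, 7.34, 12.7, 3.61 and 8.004 TPM in DMSO and 16.2, 17.8, 12.5, 14.4 and 17.9 in EGCG, and rose (log2 change 0.96 ± 0.27 (SE), limma adjusted p = 0.00319), although 1 DMSO library lay above the lowest EGCG library. The log2 ratio of Slc16a3 to Slc16a1 was higher by 1.75 (exact p = 0.00794, adjusted p = 0.0244). Hk1 rose from 28.98 ± 3.82 to 36.6 ± 3.09 TPM (0.33 (adjusted p = 0.0023)), and Eno3 from 5.18 ± 1.63 to 6.66 ± 1.15 (0.34 (adjusted p = 0.0241)), with overlapping libraries for Eno3. The call of Eno3 was lost without Th17n DMSO Total replicates 1, 4 or 5 or EGCG Total replicates 3 or 4, each alone, when the groups were fitted alone, or without columns 1 and 10 (adjusted p from 0.00409 to 0.198 over 17 alternatives).

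Pgam1 did not pass the test in unsorted Th17n cells (log2 change -0.08 ± 0.04 (SE), limma adjusted p = 0.168) and rose in first-division cells (log2 change 0.15 ± 0.05 (SE), limma adjusted p = 0.00763). The first-division call ended after median-ratio rescaling and with well A4 in its labelled group (adjusted p from 0.000715 to 0.645 over 16 alternatives), and rescaling brought the unsorted change past the threshold, at -0.12, as did leaving out DMSO Total replicate 5, at -0.11 (adjusted p from 0.00194 to 0.417 over 17 alternatives). Also in first-division cells, Hk2 went from 23.9 ± 3.21 to 32.5 ± 1.01 TPM (log2 change 0.44 ± 0.09 (SE), limma adjusted p = 9.23e-05), Slc2a1, which encodes GLUT1, from 42.3 ± 3.49 to 53.8 ± 1.31 (log2 change 0.34 ± 0.08 (SE), limma adjusted p = 0.000697) and Mpc1 from 266 ± 7.14 to 339 ± 15.3 (log2 change 0.35 ± 0.06 (SE), limma adjusted p = 8.92e-07). The calls of Hk2 and Slc2a1 ended with well A4 put back (adjusted p from 1.83e-05 to 0.189 over 16 alternatives for Hk2 and up to 0.0515 for Slc2a1). The summed T helper 17 markers were 6811 to 8196 and 6559 to 7993 TPM in DMSO and EGCG unsorted, and 3955 to 4853 and 7909 to 9044 after 1 division, and the CD8 T and NK markers 11.6 to 21.2 and 14.4 to 24.8 unsorted, and 15.4 to 27.6 and 15.8 to 22.9 after 1 division. Their part in these changes was not tested.

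**Figure D3:**
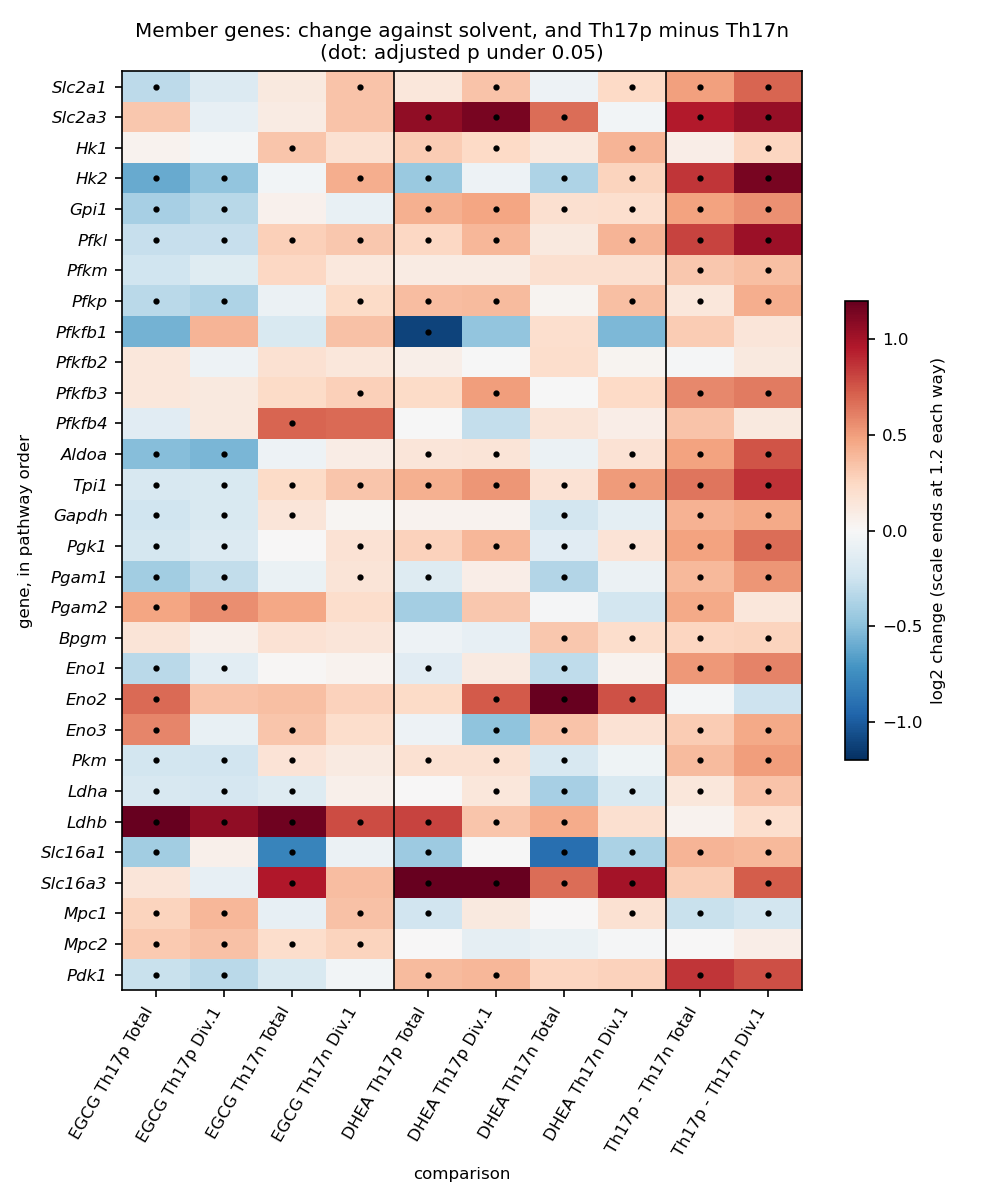
Log2 changes of the 30 tested genes (rows, in pathway order) in the 8 comparisons of a compound with its solvent and the 2 comparisons of Th17p with Th17n cells (columns), red for higher and blue for lower, with the colour scale ending at a change of 1.2 either way. A dot marks an adjusted p under 0.05; the row of Ldhb is red with a dot under EGCG in all 4 columns, and 15 rows are blue with a dot for EGCG in unsorted Th17p cells.

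The response to EGCG was tested for a difference between the kinds of cell. Unsorted, 13 of the 30 genes had a lower response in Th17p than in Th17n and 3 a higher one, against 7.55% and 12.4% of all genes. After 1 division 11 had a lower response and 0 a higher one, against 8.38% and 9.12%. Pgam1 was among them, with a log2 difference of -0.34 (adjusted p = 2.81e-05) unsorted and -0.45 (adjusted p = 6e-07) after 1 division. Hk2 differed by -0.58 (adjusted p = 0.00025) and -0.91 (adjusted p = 2.25e-07), and Pfkl by -0.57 (adjusted p = 2.41e-05) and -0.60 (adjusted p = 3.04e-05). Aldoa differed by -0.63 (adjusted p = 2.09e-08) after 1 division. The response was higher in Th17p for Ldhb, by 0.44 (adjusted p = 0.00816), for Mpc1, by 0.37 (adjusted p = 0.000156), and for Slc16a1, by 0.38 (adjusted p = 0.0494), in unsorted cells. That of Slc16a1, a smaller fall in Th17p, lost its call in 19 of 27 alternatives, no filter and 16 single libraries left out among them (adjusted p from 0.0101 to 0.167 over 27 alternatives). The difference of Pfkm, -0.48 (adjusted p = 0.0226), also ended without Th17n EGCG replicate 1, Th17p DMSO replicate 5 or Th17p EGCG replicate 3, without columns 1 and 10, or with the groups fitted alone (adjusted p from 0.00299 to 0.166 over 27 alternatives).

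DHEA raised many genes of the pathway in Th17p cells, the transporters Slc2a3 and Slc16a3 most of all. Unsorted, 12 of the 30 genes rose and 6 fell, against 20.9% and 26.8% of all genes. After 1 division 16 rose and 1 fell, against 18.1% and 19.2%. The median log2 change of the 30 was 0.11 and 0.17, with -0.02 and 0.00 for all genes.

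Slc16a3 read 6.26, 3.98, 3.71, 12.4 and 14.5 TPM in unsorted methanol libraries and 25.6, 35.5, 29.4, 38.3 and 31.9 in DHEA libraries. The lowest DHEA library was above the highest methanol library, and Slc16a3 rose to 3.94 times its methanol mean (log2 change 2.02 ± 0.27 (SE), limma adjusted p = 2.05e-09). After 1 division it read 9.49, 7.04, 9.21, 9.47 and 16.02 and 29.01, 36.7, 41.6, 43.8 and 33.7 TPM, also apart (log2 change 1.79 ± 0.27 (SE), limma adjusted p = 1.12e-07). In Th17p methanol Div.1 the column 10 library was far above the other 4. Slc2a3 (ENSMUSG00000003153.10, mm10 chr6:122727809-122801640, minus strand) read 9.16, 7.77, 8.13, 8.45 and 9.09 TPM in methanol and 21.2, 18.7, 15.9, 20.3 and 18.6 in DHEA, unsorted, and rose to 2.22 times its methanol mean (log2 change 1.06 ± 0.26 (SE), limma adjusted p = 0.000407). After 1 division it read 8.46, 7.73, 7.71, 7.81 and 11.1 and 15.9, 19.2, 20.9, 23.2 and 21.2 TPM (log2 change 1.14 ± 0.26 (SE), limma adjusted p = 0.000264). In both sorts all DHEA libraries were the higher.

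The transporter paired with each behaved otherwise in unsorted cells. Slc2a1 stood at 63.6 ± 7.62 TPM in methanol and 69.5 ± 5.66 in DHEA, and the log2 ratio of Slc2a3 to Slc2a1 was higher by 0.93 (exact p = 0.00794, adjusted p = 0.0244) unsorted and 0.79 (exact p = 0.00794, adjusted p = 0.0244) after 1 division. Slc16a1 read 72.02, 80.8, 81.4, 88.0 and 81.4 TPM in methanol and 59.3, 58.2, 56.1, 56.1 and 66.4 in DHEA, and fell (log2 change -0.44 ± 0.10 (SE), limma adjusted p = 0.000164). The log2 ratio of Slc16a3 to Slc16a1 was higher by 2.46 (exact p = 0.00794, adjusted p = 0.0244) unsorted and 1.79 (exact p = 0.00794, adjusted p = 0.0244) after 1 division.

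Of the enzymes, Gpi1 rose unsorted from 376 ± 24.9 to 506 ± 21.8 TPM (log2 change 0.43 ± 0.04 (SE), limma adjusted p = 2.86e-15), and Tpi1 after 1 division from 1461 ± 120.5 to 2108 ± 83.2 (log2 change 0.53 ± 0.06 (SE), limma adjusted p = 5.09e-10). Pfkfb3, whose enzyme makes fructose 2,6-bisphosphate and so stimulates phosphofructokinase, rose after 1 division from 11.2 ± 1.08 to 16.3 ± 0.836 TPM (log2 change 0.51 ± 0.11 (SE), limma adjusted p = 0.000133). Ldhb rose unsorted: it read 34.6, 35.8, 41.98, 33.4 and 34.4 TPM in methanol and 60.5, 65.5, 62.8, 62.1 and 67.2 in DHEA (log2 change 0.81 ± 0.09 (SE), limma adjusted p = 9.34e-12). The log2 ratio of Ldhb to Ldha was higher by 0.80 (exact p = 0.00794, adjusted p = 0.0244). Hk2 fell unsorted from 55.1 ± 5.44 to 40.1 ± 1.52 TPM (log2 change -0.44 ± 0.09 (SE), limma adjusted p = 1.33e-05), and Mpc1 from 267 ± 7.63 to 228 ± 17.2 (log2 change -0.23 ± 0.05 (SE), limma adjusted p = 0.000238). Eno3 fell after 1 division from 12.9 ± 1.03 to 9.05 ± 1.84 TPM (log2 change -0.48 ± 0.12 (SE), limma adjusted p = 0.00109).

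Pgam1 fell a little in unsorted cells (log2 change -0.16 ± 0.04 (SE), limma adjusted p = 0.00248, overlapping libraries) and did not pass the test after 1 division (log2 change 0.08 ± 0.04 (SE), limma adjusted p = 0.151), where it passed only with median-ratio rescaling (0.08, adjusted p from 0.0347 to 0.303 over 17 alternatives). Pgk1 read 1236, 1239, 1229, 1299 and 1438 TPM in unsorted methanol libraries and 1522, 1587, 1514, 1479.9 and 1693 in DHEA libraries. Beside it, the log2 ratio of Pgam1 to Pgk1 was lower in all 4 comparisons of DHEA with methanol. In Th17p it was lower by -0.43 (exact p = 0.00794, adjusted p = 0.0244) unsorted and by -0.32 after 1 division, and in Th17n by -0.21 and -0.23, each with the same exact p. The summed T helper 17 markers were 1869.7 to 2504 TPM in Th17p methanol Total and 924 to 1105 in DHEA Total, and the CD8 T and NK markers 14.96 to 24.2 and 24.1 to 34.6. After 1 division the T helper 17 markers were 1523 to 2210.4 and 971 to 1054 TPM in methanol and DHEA, and the CD8 T and NK markers 18.1 to 31.95 and 23.1 to 36.5. Their part in these changes was not tested.

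**Figure D4:**
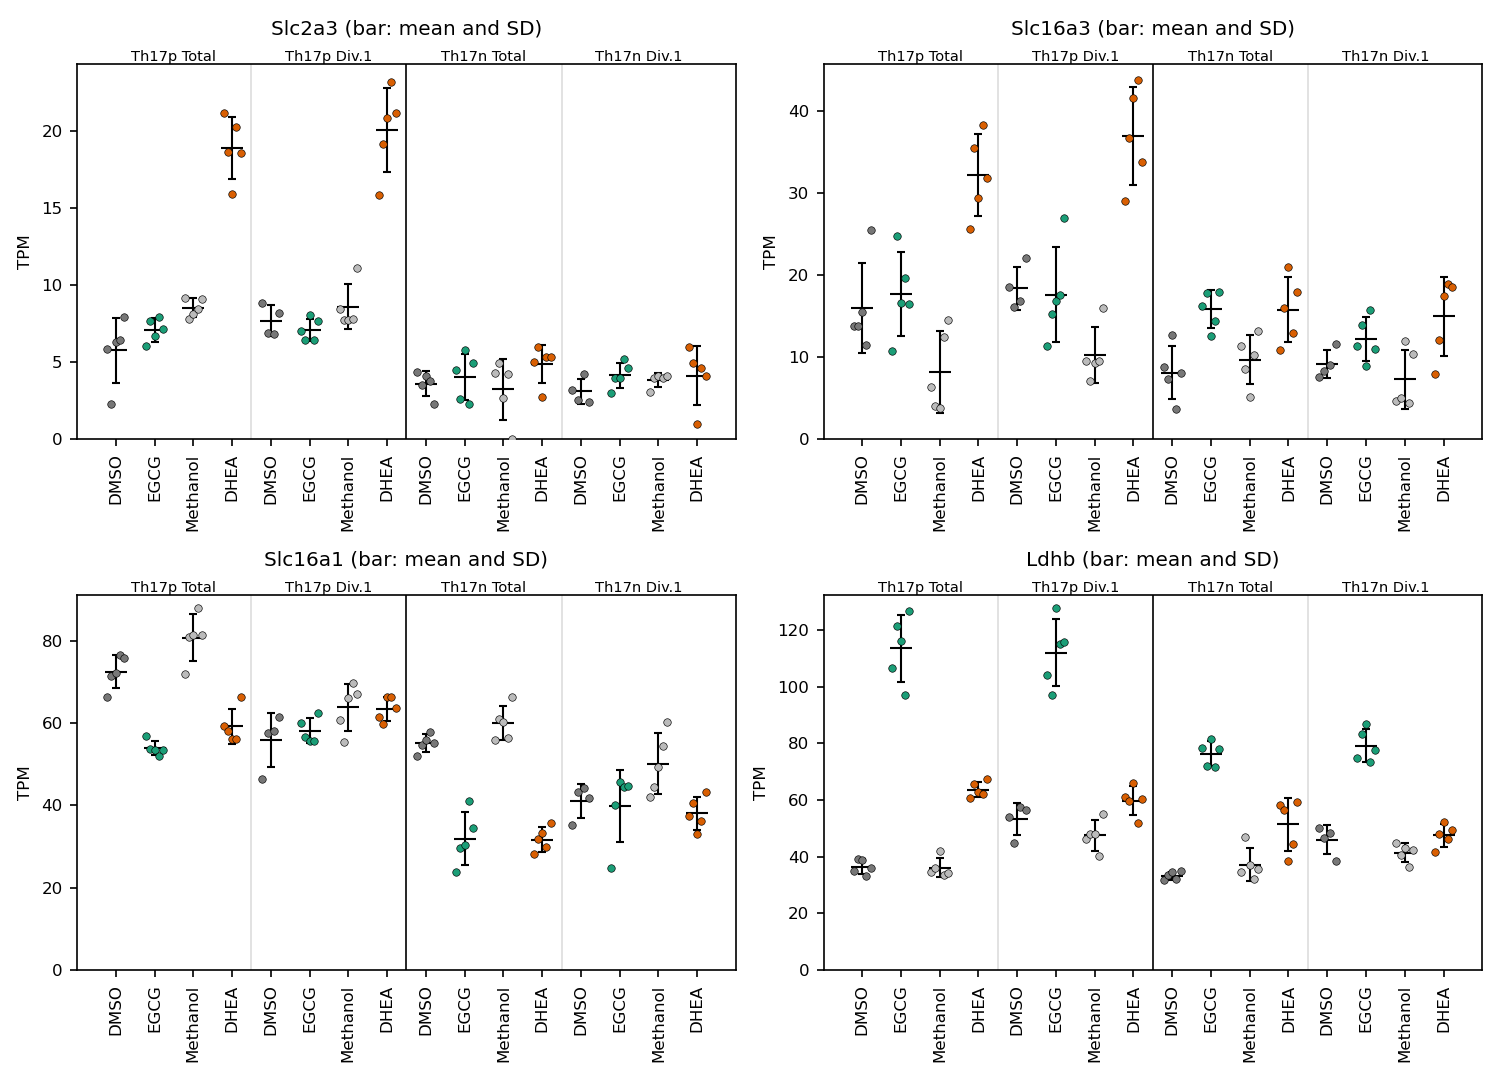
Slc2a3, Slc16a3, Slc16a1 and Ldhb in TPM on the vertical axes in each of the 78 libraries, by group, with 1 point per library and bars for the group mean and SD. Slc2a3 and Slc16a3 are highest in the Th17p DHEA groups, at 20.1 and 36.96 TPM after 1 division, and Ldhb in the Th17p EGCG groups, at 114 TPM unsorted.

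In unsorted Th17n cells 8 of the 30 genes rose with DHEA and 8 fell, against 20.8% and 25.3% of all genes, so both counts were near the background. After 1 division 13 rose and 2 fell, against 22.1% and 14.6%. The median log2 change was 0.07 and 0.18, with -0.01 and 0.05 for all genes. With only the groups compared in the fit, 7 rose and 1 fell after 1 division, with no share of all genes to set beside them. With median-ratio rescaling 12 rose and 5 fell after 1 division, against 19% and 18.5% of all genes. Leaving out 1 library at a time left 5 to 9 increases unsorted.

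Among the decreases were genes of the lactate end. Slc16a1 read 55.9, 61.03, 60.3, 56.4 and 66.3 TPM in unsorted methanol libraries and 28.04, 31.7, 33.2, 29.8 and 35.7 in DHEA libraries, apart, and fell to 0.528 times its methanol mean (log2 change -0.90 ± 0.10 (SE), limma adjusted p = 9.9e-12). After 1 division the change was -0.38 (adjusted p = 0.00164), with overlap. Ldha fell from 5068 ± 298 to 3854 ± 239 TPM unsorted (log2 change -0.40 ± 0.05 (SE), limma adjusted p = 2.75e-11) and by -0.18 (adjusted p = 0.00102) after 1 division. The first-division call of Ldha ended when only the groups compared were fitted (adjusted p from 5.15e-08 to 0.0767 over 17 alternatives). Pgam1 fell in unsorted cells, with no overlap (log2 change -0.35 ± 0.04 (SE), limma adjusted p = 5.56e-10), and did not pass the test after 1 division (log2 change -0.07 ± 0.04 (SE), limma adjusted p = 0.248), where it passed only with median-ratio rescaling (-0.11, adjusted p from 0.00633 to 0.702 over 17 alternatives). Hk2 fell from 28.4 ± 2.84 to 21.7 ± 2.13 TPM unsorted, with overlapping libraries (log2 change -0.37 ± 0.09 (SE), limma adjusted p = 0.000249).

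Among the increases, Slc16a3 went from 9.67 ± 3.03 to 15.7 ± 3.98 TPM unsorted (0.67 (adjusted p = 0.0331)) and from 7.25 ± 3.62 to 14.9 ± 4.82 after 1 division (0.99 (adjusted p = 0.00207)), with overlap in both. The unsorted call ended without DHEA replicates 7, 8 or 10 or methanol replicates 7 or 8 and with no filter (adjusted p from 0.0185 to 0.154 over 17 alternatives). The log2 ratio of Slc16a3 to Slc16a1 was higher by 1.57 (exact p = 0.00794, adjusted p = 0.0244) unsorted and by 1.38 (exact p = 0.0159, adjusted p = 0.0433) after 1 division. The first-division call ended in 9 of 13 alternatives (adjusted p from 0.0423 to 0.125), among them each single library left out except DHEA replicate 6 and methanol replicate 8. Ldhb went from 37.2 ± 5.76 to 51.4 ± 9.37 TPM unsorted (0.45 (adjusted p = 2.37e-05)), and the ratio of Ldhb to Ldha was higher by 0.84 (exact p = 0.00794, adjusted p = 0.0244). Bpgm rose by 0.32 (adjusted p = 0.000689) and Eno3 by 0.34 (adjusted p = 0.0167). The call of Eno3 ended without DHEA replicate 8 or methanol replicate 9 (adjusted p from 0.00501 to 0.0941 over 17 alternatives).

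After 1 division Tpi1 went from 723 ± 68.6 to 1029.9 ± 92.2 TPM (log2 change 0.51 ± 0.06 (SE), limma adjusted p = 1.68e-09), Hk1 from 28.8 ± 2.06 to 38.7 ± 4.06 (log2 change 0.41 ± 0.09 (SE), limma adjusted p = 0.000154) and Pfkl from 69.5 ± 8.85 to 92.5 ± 11.8 (log2 change 0.41 ± 0.07 (SE), limma adjusted p = 5.78e-06). Gpi1, Tpi1 and Slc16a3 were the 3 of the 30 that rose with DHEA in all 4 combinations of cell and sort, against 6.49% of all genes, and 0 fell in all 4, against 7.66%. The count of increases is near the background. The summed T helper 17 markers were 4859.8 to 6244 and 1357 to 2057 TPM in methanol and DHEA unsorted, and the CD8 T and NK markers 18.2 to 26.4 and 32.7 to 47.1. After 1 division the T helper 17 markers were 3719 to 4697 and 1697 to 2802 TPM in methanol and DHEA, and the CD8 T and NK markers 20.4 to 37.4 and 31.6 to 46.5. Their part in these changes was not tested.

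The response to DHEA was higher in Th17p than in Th17n for 11 of the 30 genes and lower for 3 unsorted, against 8.06% and 6.73% of all genes, and for 5 and 1 after 1 division, against 6.49% and 9.39%. With only the groups compared in the fit, 7 were higher unsorted, with no share of all genes to set beside them. With median-ratio rescaling 8 were higher after 1 division, against 8.17% of all genes. Slc16a3 differed by 1.35 (adjusted p = 0.00793), Slc16a1 by 0.46 (adjusted p = 0.0165) and Pgk1 by 0.41 (adjusted p = 2.48e-05) unsorted on the log2 scale. Slc2a3 differed by 1.17 (adjusted p = 0.0179), Ldha by 0.31 (adjusted p = 0.000222) and Gpi1 by 0.27 (adjusted p = 0.000221) after 1 division. The response was lower in Th17p for Bpgm, by -0.38 (adjusted p = 0.0157), and Mpc1, by -0.23 (adjusted p = 0.0258), unsorted, and for Eno3, by -0.65 (adjusted p = 0.00446), after 1 division. Pgam1 differed by 0.20 (adjusted p = 0.0222) unsorted, and its value after 1 division was 0.15 (adjusted p = 0.0995), which passed with rescaling (0.19), with the replicate block and without Th17n DHEA Div.1 replicate 10 (0.18). The unsorted call of Pgam1 ended without Th17n DHEA replicate 9, Th17n methanol replicate 10, Th17p DHEA replicate 10 or Th17p methanol replicate 6 and in 2 other alternatives (adjusted p from 0.000891 to 0.116 over 27 alternatives), and that of Mpc1 without Th17n DHEA replicate 6, Th17n methanol replicates 7 or 9, or Th17p DHEA replicates 6 or 7 (up to 0.0722). The call of Slc2a3 ended at a pseudocount of 0.1 and without Th17n DHEA Div.1 replicate 8 (adjusted p from 0.00817 to 0.16 over 27 alternatives).

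The compounds were given at 20 and 50 uM, each in its own solvent, so the responses to each one's solvent are set side by side and their difference was tested. Wells of columns 1 to 5 carried EGCG and DMSO and those of columns 6 to 10 DHEA and methanol, so compound and plate position cannot be told apart. In unsorted Th17p cells 14 of the 30 genes had a lower response to EGCG than to DHEA and 5 a higher one, against 9.34% and 24.7% of all genes. After 1 division 16 had a lower and 3 a higher response, against 7.65% and 23.8%. In Th17n cells 3 were lower and 8 higher unsorted, against 8.49% and 18.1%, and 1 and 4 after 1 division, against 6.64% and 16.6%. With median-ratio rescaling, under which the all-gene median shifted by over 0.1 in Th17p, there were 17 lower and 4 higher unsorted in Th17p, against 15.6% and 16.6% of all genes, and 18 and 2 after 1 division, against 13.5% and 15.1%. In Th17n there were 4 and 6 unsorted, against 13.1% and 12.8%, and 3 and 3 after 1 division, against 10.3% and 10.7%.

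In unsorted Th17p cells 8 enzymes and regulators fell with EGCG and rose with DHEA: Gpi1, Pfkl, Pfkp, Aldoa, Tpi1, Pgk1, Pkm and Pdk1. Of all genes 1.17% did so. The difference passed the test for all 8, which opposite calls in the same fit make nearly certain, so it adds little to them. After 1 division 9 did so, the same ones with Ldha, against 0.975% of all genes, and again all 9 differences passed. In Th17n cells 0 of the 30 fell with EGCG and rose with DHEA in either sort, against 0.553% of all genes unsorted and 0.956% after 1 division. Hk2, Pgam1, Eno1 and Slc16a1 fell with both compounds in unsorted Th17p cells, as did 9.46% of all genes. In first-division Th17n cells Slc2a1, Hk2, Pfkl, Pfkp, Tpi1, Pgk1 and Mpc1 rose with both, as did 10.4% of all genes, and for none of these 7 did the difference pass the test. Ldhb rose with both compounds in Th17p cells of either sort and in unsorted Th17n cells, as did 11.2%, 10.5% and 9.76% of all genes.

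For Pgam1 the response to EGCG was lower than that to DHEA in Th17p, by -0.27 (adjusted p = 0.000446) unsorted and -0.38 (adjusted p = 3.23e-06) after 1 division, and higher in Th17n, by 0.27 (adjusted p = 0.000457) and 0.22 (adjusted p = 0.00785). The last of these calls ended with well A4 in its labelled group (adjusted p from 0.000715 to 0.415 over 26 alternatives). Slc16a3 differed most in Th17p, by -1.87 (adjusted p = 4.48e-05) unsorted and -1.89 (adjusted p = 7.93e-05) after 1 division, followed by Slc2a3 after 1 division (-1.24 (adjusted p = 0.00761)), whose call ended at a pseudocount of 0.1 (adjusted p from 1.15e-05 to 0.121 over 26 alternatives). Gpi1 differed by -0.83 (adjusted p = 2.22e-20) and -0.80 (adjusted p = 1.28e-18), and Pfkp by -0.69 (adjusted p = 3.91e-09) unsorted. In Th17n, Gpi1 differed by -0.29 (adjusted p = 3.8e-05) after 1 division. Ldhb had the higher response to EGCG throughout, by 0.80 (adjusted p = 4.17e-07) and 0.73 (adjusted p = 7.23e-06) in Th17p and 0.72 (adjusted p = 6.61e-06) and 0.59 (adjusted p = 0.000392) in Th17n. Mpc1 differed by 0.50 (adjusted p = 1.49e-07) unsorted and 0.28 (adjusted p = 0.00331) after 1 division in Th17p, and Mpc2 by 0.45 (adjusted p = 2.9e-05) after 1 division. The first-division difference of Mpc1 ended with rescaling (adjusted p from 0.000441 to 0.08 over 26 alternatives). Eno3 also had the higher response to EGCG in unsorted Th17p cells, by 0.54 to 0.72 with single libraries left out. Its call held in all 27 alternatives (limma adjusted p from 0.000659 to 0.0208).

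In unsorted Th17n cells Gapdh differed by 0.37 (adjusted p = 5.61e-05) and Pkm by 0.36 (adjusted p = 3.55e-06), both with a rise under EGCG and a fall under DHEA. Gapdh went from 1960.5 ± 47.4 to 2177 ± 106 TPM with EGCG and from 1925 ± 159 to 1654 ± 114 with DHEA. Pdk1 and Gpi1 differed by -0.44 (adjusted p = 0.0349) and -0.14 (adjusted p = 0.0447), calls that ended in 12 and 17 of 27 alternatives, single libraries among them (adjusted p of up to 0.323 and 0.19). After 1 division Ldha differed by 0.24 (adjusted p = 0.00401) and Mpc2 by 0.28 (adjusted p = 0.0144), calls that ended with well A4 put back, and that of Mpc2 also without Th17n DMSO Div.1 replicate 1 and in 3 other alternatives (adjusted p of up to 0.196 for Ldha and 0.14 for Mpc2).

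**Figure D5:**
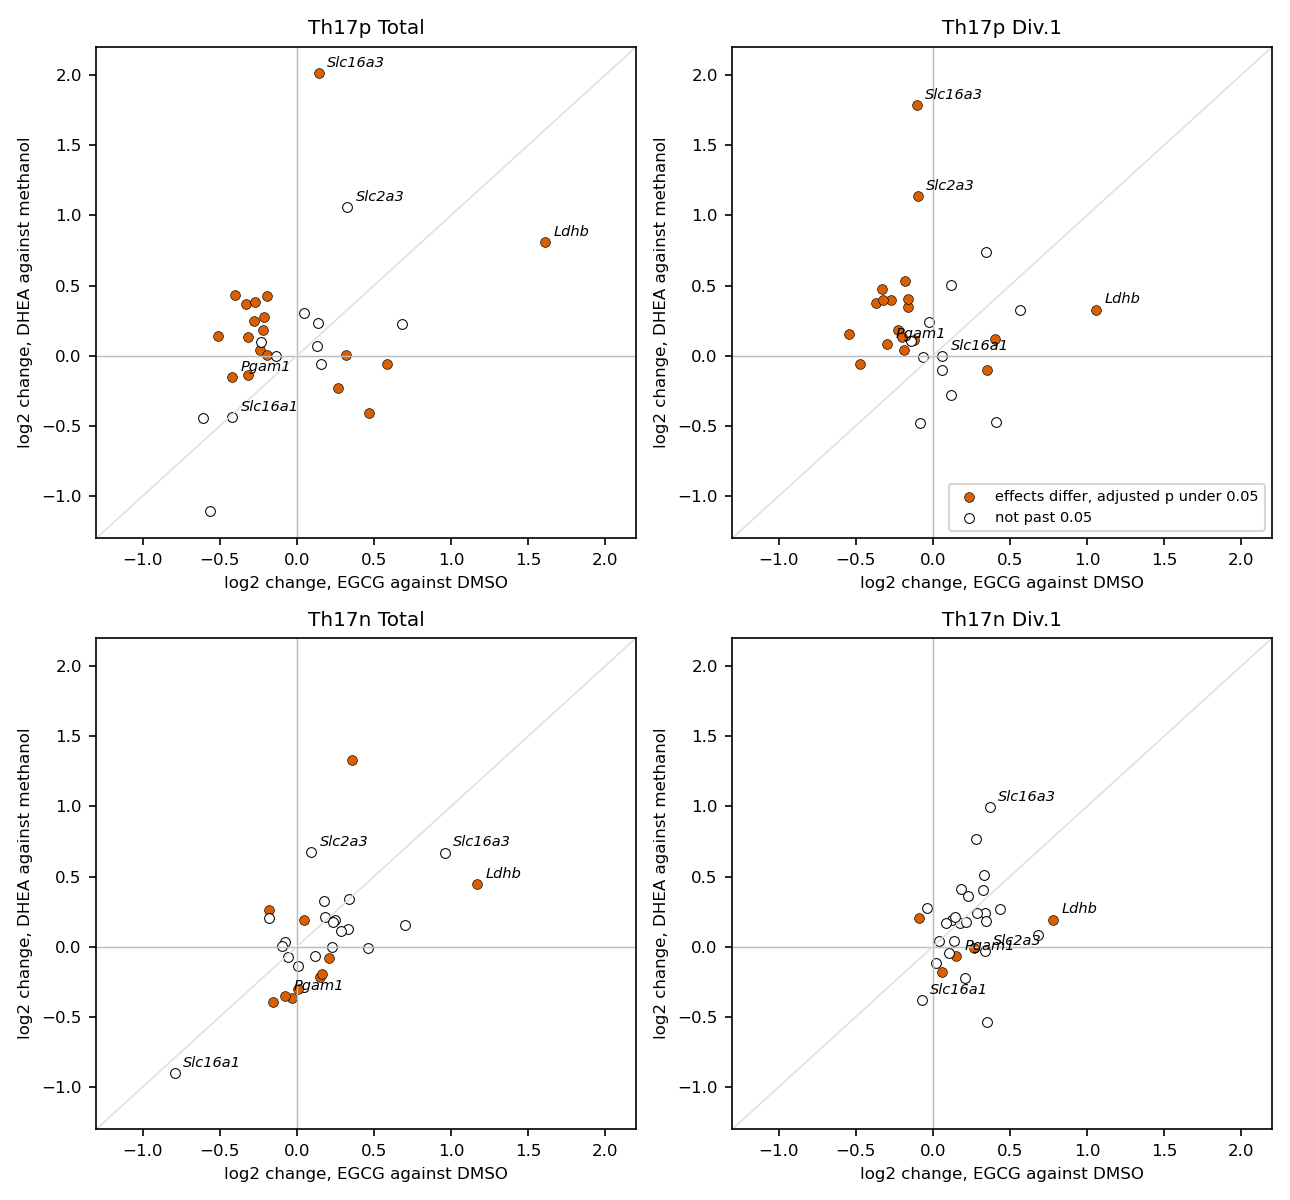
Log2 change of the 30 tested genes with EGCG against DMSO (horizontal axis) and with DHEA against methanol (vertical axis), 1 panel for each kind of cell and sort, with a diagonal where the responses are equal. Filled points mark genes whose responses differ at an adjusted p under 0.05; 19 of the 30 are filled in each Th17p panel, 11 in unsorted and 5 in first-division Th17n cells.

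Cells sorted after 1 division were set against unsorted cells over both solvents. In Th17p 2 of the 30 genes were higher and 2 lower after 1 division, against 8.63% and 10.8% of all genes, and in Th17n 1 higher and 12 lower, against 5.8% and 16.1%. In Th17n, median-ratio rescaling left 1 and 12, against 10.1% and 11.1%. Well A4 in its labelled group gave 2 and 5 there, with no share of all genes to set beside them. In Th17p rescaling gave 4 and 2, against 11.1% and 10.6%. Ldhb was higher in both, by 0.46 (adjusted p = 2.31e-07) in Th17p and 0.30 (adjusted p = 0.000299) in Th17n, and Eno3 by 0.34 (adjusted p = 0.00332) in Th17p. Slc16a1 and Mpc1 were lower in both: Slc16a1 by -0.36 (adjusted p = 0.000222) and -0.34 (adjusted p = 0.000258), and Mpc1 by -0.20 (adjusted p = 0.000115) and -0.25 (adjusted p = 1.41e-06). In Th17n, Hk2 (-0.34 (adjusted p = 2.83e-05)), Pfkp (-0.24 (adjusted p = 9.46e-05)) and Pgam1 (-0.20 (adjusted p = 4.09e-06)) were lower as well. The value of Pgam1 in Th17p was -0.06 (adjusted p = 0.178). The call of Hk2 ended with well A4 put back (adjusted p from 6.82e-06 to 0.0513 over 26 alternatives).

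The responses were also tested for a difference between the sorts. With EGCG, 0 of the 30 genes had a higher and 2 a lower response after 1 division in Th17p, against 1.35% and 1.22% of all genes, and 6 and 1 in Th17n, against 10.8% and 2.53%. With DHEA, 5 were higher and 1 lower in Th17p, against 5.6% and 4.31%, and 9 and 0 in Th17n, against 5.12% and 1.68%. Rescaling gave 1 and 2 for EGCG in Th17p, against 1.19% and 2.31%, and 4 and 4 in Th17n, against 7.35% and 6.7%. For DHEA it gave 5 and 1 in Th17p, against 4.56% and 6.36%, and 6 and 0 in Th17n, against 2.06% and 3.11%. The rise of Ldhb with EGCG was smaller after 1 division, by -0.55 (adjusted p = 0.00978) in Th17p and -0.39 (adjusted p = 0.0331) in Th17n, and with DHEA in Th17p by -0.48 (adjusted p = 0.00842). The Th17n difference with EGCG ended in 10 of 26 alternatives (adjusted p from 0.00677 to 0.226 over 26 alternatives), and that with DHEA without columns 1 and 10 (adjusted p from 0.00139 to 0.0728 over 27 alternatives). The fall of Slc16a1 was smaller after 1 division as well, by 0.72 (adjusted p = 0.000319) for EGCG in Th17n, and for DHEA by 0.44 (adjusted p = 0.0361) in Th17p and 0.52 (adjusted p = 0.0165) in Th17n. That for DHEA in Th17p ended in 12 of 27 alternatives (adjusted p from 0.000787 to 0.0798 over 27 alternatives) and that in Th17n without methanol Div.1 replicate 6 (adjusted p from 0.000513 to 0.0536 over 27 alternatives).

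The response of Pgam1 was higher after 1 division for EGCG in Th17n (0.23 (adjusted p = 0.00925)) and for DHEA in Th17p (0.24 (adjusted p = 0.0085)) and Th17n (0.28 (adjusted p = 0.00327)), and was 0.13 (adjusted p = 0.338) for EGCG in Th17p. The first and the second of these calls ended with well A4 in its labelled group (adjusted p of up to 0.39 and 0.0663), and that for DHEA in Th17n with only the groups compared in the fit (up to 0.0615). Hk2 showed the same 3 calls, at 0.47 (adjusted p = 0.00664), 0.39 (adjusted p = 0.0301) and 0.63 (adjusted p = 0.000952). The first of them ended with well A4 put back and with the groups fitted alone (adjusted p from 0.00193 to 0.407 over 26 alternatives), and the second in 10 of 27 alternatives (adjusted p from 0.00547 to 0.151 over 27 alternatives). Mpc1 had a higher response after 1 division for EGCG in Th17n (0.45 (adjusted p = 3.92e-05)) and DHEA in Th17p (0.35 (adjusted p = 0.00112)), and Eno1 for DHEA in Th17n (0.34 (adjusted p = 0.00124)). Eno3 had a lower response after 1 division for EGCG in Th17p (-0.67 (adjusted p = 0.0207)), a call that ended without DMSO Total replicate 1 or 4 or without columns 1 and 10 (adjusted p from 0.00614 to 0.112 over 26 alternatives).

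The solvents were compared over both sorts, although solvent and plate columns cannot be told apart. Methanol against DMSO gave 1 higher and 3 lower of the 30 in Th17p, against 8.44% and 5.14% of all genes, and 1 higher and 8 lower in Th17n, against 10.1% and 4.26%. Leaving out 1 library at a time gave 1 to 5 lower in Th17p and 4 to 8 in Th17n, and the wells of columns 1 and 10 left out gave 7 lower in Th17p. No shares of all genes stand beside these counts. Eno3 was higher in methanol in both, by 0.75 (adjusted p = 1.04e-09) and 0.69 (adjusted p = 9.02e-09). Slc16a3 was lower in methanol in Th17p (-0.92 (adjusted p = 0.000356)), the baseline of its response to DHEA. Tpi1 was lower by -0.14 (adjusted p = 0.0335) in Th17p and -0.40 (adjusted p = 8.31e-10) in Th17n, Gpi1 by -0.09 (adjusted p = 0.0197) in Th17p, and Pfkl and Pdk1 by -0.37 (adjusted p = 1.7e-07) and -0.24 (adjusted p = 0.0462) in Th17n. The calls of Tpi1 and Gpi1 in Th17p ended in 13 and 3 of 25 alternatives, Th17p DMSO Div.1 replicate 2 left out among them for Gpi1 (adjusted p of up to 0.151 and 0.139), and that of Pdk1 in 16 (up to 0.115). Pgam1 did not pass the test, at 0.04 (adjusted p = 0.487) and 0.00 (adjusted p = 0.995).

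Genes around the pathway were counted from lists outside the set, with the same fit. For unsorted Th17p cells the backgrounds are those given above, 30.1% higher and 14.9% lower with EGCG and 20.9% and 26.8% with DHEA. Of 12 regulators tested, 2 were higher and 2 lower with EGCG and 5 higher and 0 lower with DHEA. Hif1a, the oxygen-regulated subunit of HIF-1, rose with DHEA by 0.88 (adjusted p = 2.13e-11) in unsorted Th17p and by 0.33 and 0.32 in Th17n, and Egln1, a HIF prolyl hydroxylase, by 0.39 and 0.51 in Th17p. Egln3, another of these hydroxylases, fell with EGCG in Th17p by 1.53 unsorted and 1.77 after 1 division on the log2 scale. Txnip, which curbs glucose uptake, rose with EGCG in all 4 comparisons, by 0.77 and 1.10 in Th17p and 0.95 and 0.84 in Th17n. Bsg, the chaperone of the lactate transporters, rose with EGCG by 0.23 and 0.28 in Th17p and 0.30 and 0.37 in Th17n.

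Of 5 further genes of glucose entry, 4 were higher and 0 lower with EGCG and 1 higher and 2 lower with DHEA in unsorted Th17p cells. Slc2a6 and Slc2a8, which encode transporters of the same family, rose with EGCG in all 4 comparisons, Slc2a6 by 1.12, 1.66, 1.22 and 1.76 and Slc2a8 by 1.08, 0.96, 0.67 and 0.46 (Th17p Total and Div.1, then Th17n). Of 8 glycogen genes, 1 was higher and 1 lower with EGCG and 3 higher and 1 lower with DHEA. Gys1, glycogen synthase, rose with DHEA by 0.75 (adjusted p = 8.35e-08) and Pgm2, phosphoglucomutase, by 0.46 (adjusted p = 1.03e-08). Of 3 gluconeogenic and bypass genes, 0 were higher and 1 lower with EGCG and 1 higher and 1 lower with DHEA. Pck2 fell with EGCG by 1.56 and 1.18 on the log2 scale in Th17p, and G6pc3, a glucose-6-phosphatase, fell with DHEA in all 4 comparisons, by 0.47 in unsorted Th17p.

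Of 10 genes of the pyruvate dehydrogenase complex and its regulators, 1 was higher and 2 lower with EGCG and 2 higher and 6 lower with DHEA in unsorted Th17p cells. Dld, the E3 subunit, fell with DHEA by -0.55 (adjusted p = 9.93e-17) and Pdhx, the E3-binding protein, by -0.57 (adjusted p = 2.39e-12). Of 9 genes of the shuttles that carry the electrons of cytosolic NADH into the mitochondrion, 4 were higher and 3 lower with EGCG and 1 higher and 6 lower with DHEA. Slc25a13, the aspartate-glutamate carrier, changed with DHEA by -0.87 and -0.53 in Th17p and -0.60 and -0.31 in Th17n, and Gpd2, of the glycerophosphate shuttle, by -0.37 (adjusted p = 1.59e-05) in unsorted Th17p. In unsorted Th17n cells DHEA gave 1 higher and 5 lower for the first list and 2 higher and 7 lower for the second, against 20.8% and 25.3% of all genes. Between the kinds of cell without compound there were 6 higher and 2 lower in Th17p for pyruvate dehydrogenase and 4 higher and 2 lower for the shuttles in unsorted cells, against 30.9% and 26.5% of all genes, near which the shuttle counts lay, and Slc25a13 was higher in Th17p by 0.65 (adjusted p = 2.05e-14).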

How the data were processed

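PolyA RNA of the cultures was sequenced. The submitters' processing notes name Trimmomatic, kallisto and mm10, with versions and the summing to genes not given in the sources used here. The authors deposited 1 table of TPM with 1 value per gene symbol and library, and TPM keep no read counts, so depth is unknown. Groups and replicate numbers (well columns) came from the titles.

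Values were taken as log2(TPM + 1), and 10672 of 20465 genes with at least 1 TPM in at least 4 libraries were kept. limma 3.58.1, run in R 4.3.3, fitted 16 group means over 78 libraries, with a mean-expression trend in the empirical Bayes step. There were 26 comparisons, each two-sided and adjusted by Benjamini-Hochberg over the 10672 genes, and calls were made at an adjusted p under 0.05. Ratios within a library were compared with exact two-sided permutation tests, adjusted over 120 tests. The tests were coded for this purpose and checked against scipy 1.17.1 on 1 set of random numbers. With 4 against 4 libraries the smallest such p is 0.0286. On simulated data for EGCG in Th17p Total, the model found 82% of shifts of 0.5 and 97% of shifts of 1 (log2), and 2.72% of its calls were false. For the difference between cell types in the EGCG response, Total, 9.09% were false. The simulated libraries were independent, with equal group means apart from a small set of shifted genes, none of them of low level. The rates may therefore differ in the data themselves, and for genes at low TPM.

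The members and lists were chosen with earlier results of these data known. Beside Pgam1, each comparison names the called members with the 4 largest increases and 4 largest decreases (3 each for differences of responses and solvents) at a mean of 5 TPM or more in the higher group, and lists name up to 3 called genes of smallest p. One listed T helper 17 marker is not reported here and was left out of the summed markers. Alternatives were a pseudocount of 0.1, no filter, median-ratio rescaling, a replicate block, the compared groups alone, well A4 in its labelled group, each library left out, and, added after seeing the data, the wells of columns 1 and 10 left out. Duplicates were looked for among the 152 same-group pairs: correlations ran from 0.976 to 0.993 and 0 pairs were identical.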

Additional observations from a re-analysis of the deposited data

Results flagged for a closer look

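In 320 sets of 4 or 5 libraries, 1 for each of 20 members and 16 groups, the farthest library was tested with Dixon's ratio, which chance alone passes in about 1 of 20 sets (5%). It was passed in 19. In 10 of the 19 the library was that of column 10, in 3 that of column 6, in 2 each that of columns 1 and 5, and in 1 each that of columns 8 and 9. Slc2a3 read 3.03 TPM in Th17n Methanol Div.1 replicate 6 (others 3.95 to 4.09) and 11.1 TPM in Th17p Methanol Div.1 replicate 10 (others 7.71 to 8.46). Hk2 read 45.5 TPM in Th17p Methanol Total replicate 6 (others 56.4 to 58.7). Pfkl read 173 TPM in Th17p DMSO Total replicate 5 (others 159.6 to 162) and 150.1 TPM in Th17p EGCG Div.1 replicate 5 (others 136 to 139). Pfkp read 115 TPM in Th17p EGCG Div.1 replicate 1 (others 128 to 129.8). Pfkfb3 read 10.8 TPM in Th17n DHEA Div.1 replicate 10 (others 8.35 to 9.05). Aldoa read 1674 TPM in Th17n Methanol Total replicate 10 (others 1417 to 1469). Tpi1 read 842 TPM in Th17n Methanol Div.1 replicate 10 (others 672 to 719), 956 TPM in Th17n Methanol Total replicate 10 (others 750.1 to 791) and 1672 TPM in Th17p Methanol Div.1 replicate 10 (others 1376 to 1447). Pgam1 read 830.0 TPM in Th17n DHEA Total replicate 9 (others 944 to 987). Bpgm read 24.8 TPM in Th17n Methanol Div.1 replicate 6 (others 17.9 to 19.4). Ldha read 6128 TPM in Th17p Methanol Div.1 replicate 10 (others 5589 to 5721). Ldhb read 41.98 TPM in Th17p Methanol Total replicate 8 (others 33.4 to 35.8). Slc16a1 read 24.6 TPM in Th17n EGCG Div.1 replicate 1 (others 39.99 to 45.6). Slc16a3 read 16.02 TPM in Th17p Methanol Div.1 replicate 10 (others 7.04 to 9.49). Pdk1 read 21.6 TPM in Th17n Methanol Div.1 replicate 10 (others 16.5 to 17.3) and 49.8 TPM in Th17p DHEA Total replicate 10 (others 42.3 to 44.4).

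In 37 instances the response of a named member differed between the kinds of cell or the sorts by the test of the difference itself, given here as log2 values. The response to EGCG in Th17p minus that in Th17n, unsorted, was Hk2 -0.58, Pfkl -0.57, Pfkm -0.48, Pgam1 -0.34, Ldhb 0.44, Slc16a1 0.38 and Mpc1 0.37, and after 1 division Hk2 -0.91, Pfkl -0.60, Aldoa -0.63 and Pgam1 -0.45. For DHEA, unsorted, it was Pgk1 0.41, Pgam1 0.20, Bpgm -0.38, Slc16a1 0.46, Slc16a3 1.35 and Mpc1 -0.23, and after 1 division Slc2a3 1.17, Gpi1 0.27, Eno3 -0.65 and Ldha 0.31. The response to EGCG after 1 division minus that unsorted was Eno3 -0.67 and Ldhb -0.55 in Th17p, and in Th17n Hk2 0.47, Pgam1 0.23, Ldhb -0.39, Slc16a1 0.72 and Mpc1 0.45. For DHEA it was Hk2 0.39, Pgam1 0.24, Ldhb -0.48, Slc16a1 0.44 and Mpc1 0.35 in Th17p, and in Th17n Hk2 0.63, Pgam1 0.28, Eno1 0.34 and Slc16a1 0.52.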

How the results depend on the processing

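The counts of called members stayed within 1.5 times their value in at least 38 of 52 counts under each alternative of the model (41 of 48 under the replicate block), and in all 52 at a pseudocount of 0.1. The counts that moved follow, each with its value above in parentheses, and the cause was not tested. Shares of all genes are given for the main fit and for rescaling only. Under the other alternatives a moved count cannot be told apart from a general change in the number of calls. With only the compared groups fitted there were 7 higher (13) and 1 lower (2) for DHEA in Th17n Div.1, 2 higher (1) for methanol against DMSO in Th17p, 2 higher (1) and 4 lower (8) for methanol against DMSO in Th17n, 7 higher (11) for the DHEA response between cell kinds, Total, 1 higher (0) for the EGCG response between sorts in Th17p, 2 lower (1) for the EGCG response between sorts in Th17n, 3 higher (9) for the DHEA response between sorts in Th17n and 1 lower (3) for EGCG minus DHEA in Th17n Total. With median-ratio rescaling there were 4 lower (2) for EGCG in Th17n Total, 6 higher (11) and 1 lower (0) for EGCG in Th17n Div.1, 5 lower (2) for DHEA in Th17n Div.1, 4 higher (2) for Div.1 against Total in Th17p, 6 lower (3) for methanol against DMSO in Th17p, 8 higher (5) for the DHEA response between cell kinds, Div.1, 1 higher (0) for the EGCG response between sorts in Th17p, 4 lower (1) for the EGCG response between sorts in Th17n and 3 lower (1) for EGCG minus DHEA in Th17n Div.1. With no filter there were 5 lower (8) for methanol against DMSO in Th17n, 0 lower (1) for the EGCG response between sorts in Th17n, 3 higher (5) for the DHEA response between sorts in Th17p and 0 lower (3) for EGCG minus DHEA in Th17n Total. With the replicate block there were 1 lower (0) for EGCG in Th17n Div.1, 1 higher (0) for the EGCG response between cell kinds, Div.1, 8 higher (5) and 3 lower (1) for the DHEA response between cell kinds, Div.1, 2 higher (0) for the EGCG response between sorts in Th17p, 2 lower (1) for the EGCG response between sorts in Th17n and 2 lower (1) for EGCG minus DHEA in Th17n Div.1. The labels do not say that a number marks a shared mouse, culture or day, and in 0 of 24 pairs of groups did all same-numbered libraries deviate together at a correlation over 0.1 (-0.00159 to 0.315), so the fit has no block. A library correlated best with its own number in 87 of 114 cases, and in 6 pairs of groups all 5 did. With 4 or 5 libraries to match against, chance alone would give far fewer such cases. Same-numbered libraries thus shared some variation, seen in the data and not stated in the design, and its source was not tested. The main fit and the ratio tests ignore any such pairing. Of the single named values, 1 crossed the threshold under the block, the DHEA response of Pgam1 between cell kinds, Div.1 (adjusted p = 0.0322), and 143 did not. Solvents could not be compared under the block. With well A4 in its labelled group there were 3 higher (11) and 1 lower (0) for EGCG in Th17n Div.1, 2 higher (1) and 5 lower (12) for Div.1 against Total in Th17n, 1 lower (3) for methanol against DMSO in Th17p, 6 lower (11) for the EGCG response between cell kinds, Div.1, 3 higher (5) for the DHEA response between cell kinds, Div.1, 2 higher (6) and 2 lower (1) for the EGCG response between sorts in Th17n, 1 higher (5) for the DHEA response between sorts in Th17p, 4 higher (9) for the DHEA response between sorts in Th17n, 1 lower (3) for EGCG minus DHEA in Th17n Total and 2 higher (4) and 2 lower (1) for EGCG minus DHEA in Th17n Div.1. With the wells of columns 1 and 10 left out, an alternative chosen after seeing the data, there were 7 lower (3) for methanol against DMSO in Th17p, 2 lower (1) for the DHEA response between cell kinds, Div.1, 1 higher (0) and 1 lower (2) for the EGCG response between sorts in Th17p, 0 lower (1) for the EGCG response between sorts in Th17n and 0 lower (1) for the DHEA response between sorts in Th17p. That alternative also left 0 of the 44 ratios past the threshold, at adjusted p of 0.0729 or more, since 4 against 4 libraries cannot give an exact p under 0.0286. Leaving out 1 library at a time ended 11 of the named ratio calls under at least 1 library, at adjusted p of 0.0595 to 0.0657. Leaving out 1 library at a time gave 5 to 12 higher for the DHEA response between sorts in Th17n, 3 to 6 higher for the DHEA response between sorts in Th17p, 1 to 2 lower for the DHEA response between cell kinds, Div.1, 1 to 3 lower for the DHEA response between cell kinds, Total, 5 to 9 higher for DHEA in Th17n Total, 1 to 2 lower for DHEA in Th17p Div.1, 1 to 2 higher for Div.1 against Total in Th17n, 0 to 3 lower for EGCG minus DHEA in Th17n Total, 0 to 1 lower for the EGCG response between sorts in Th17n, 0 to 1 higher for the EGCG response between sorts in Th17p, 1 to 2 lower for the EGCG response between sorts in Th17p, 1 to 2 higher for methanol against DMSO in Th17n, 4 to 8 lower for methanol against DMSO in Th17n and 1 to 5 lower for methanol against DMSO in Th17p. The difference of Pgam1 between methanol and DMSO in Th17n, 0.00 with all libraries, changed sign with rescaling (-0.024), with well A4 put back (-0.055), without columns 1 and 10 (-0.033) and without single libraries (-0.020 to 0.013).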

Other observations

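The library of well A4, labelled Th17n DMSO Div.1, entered no comparison. Of the 30 tested genes, 15 lay within its row neighbours' range, that of Th17p DMSO Div.1, and 3 within the range of its labelled group. Pgam1 read 1530.0 TPM, with 1478 to 1554 in Th17p DMSO Div.1 and 1015 to 1098 in Th17n DMSO Div.1. Hk2 read 54.4 TPM, with 52.4 to 61.4 in Th17p DMSO Div.1 and 20.5 to 28.2 in Th17n DMSO Div.1.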
